A study of Sus scrofa with 21 samples.

Results

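The genes of 10 enzymes of glycolysis were followed through the testis transcriptomes of boars: HK1, ALDOA, GAPDHS, PGK1, PGK2, PGAM2, ENO1, ENO4, LDHA and LDHC. They were chosen by symbol, germ cell isoforms beside somatic ones, by a rule that uses no measured value but was written with earlier results of these data known. An identifier was found for 9 of the 10 among the 25880 Ensembl genes counted in each library, and PGK2 was not analysed here. Testis tissue had been frozen after slaughter from purebred Landrace and Duroc boars kept for artificial insemination, whose ejaculates had been scored by computer-assisted semen analysis for hyperactive motility, a swimming mode with wide, asymmetric beats of the tail. One RNA library was available per boar, from 13 Landrace and 8 Duroc boars. No boar was treated, and no age is given in the labels.

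In Landrace, 4 boars with low hyperactivity at day 0, the day of ejaculation (L1 to L4), were set against 4 with high hyperactivity (L5 to L8). A further Landrace comparison set 4 boars whose hyperactivity changed little over 96 h of liquid storage of the semen (L2, L9, L10 and L12) against 3 with a large change (L7, L13 and L15), so L2 and L7 are in both. In Duroc, the deposited labels give 5 boars as High (D1 to D5) and 3 as Low (D6, D7 and D9) and name no day, which the study's methods give as day 0. By boar name, the study's own list of boars gives the opposite level for 7 of the 8 Duroc boars. D5 is High in both, so the groups differ in their boars as well as in direction. The make-up of the Duroc groups and the direction of any Duroc difference rest on the deposited labels alone.

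Glycolysis turns glucose into pyruvate in the cytosol and yields ATP without oxygen, and lactate dehydrogenase then turns pyruvate into lactate. In mammalian spermatozoa much of the pathway is bound to the fibrous sheath of the tail, far from the mitochondria of the midpiece, and several steps are run by isoforms that are made only or mainly in male germ cells. GAPDHS, PGK2, LDHC and ENO4 are such germ cell forms, and GAPDH, PGK1, LDHA and ENO1 are their somatic counterparts. PGAM2, the muscle form of phosphoglycerate mutase, is also found in spermatozoa.

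The 9 genes lie on 6 chromosomes of the RefSeq annotation of Sscrofa11.1. LDHC (chromosome 2, 40748567 to 40810114) and LDHA (chromosome 2, 40814163 to 40827284) are neighbours. ALDOA is on chromosome 3 (18246036 to 18260167), GAPDHS on chromosome 6 (44968965 to 44978992), ENO1 on chromosome 6 (69385879 to 69401664), HK1 on chromosome 14 (72383328 to 72460927) and PGK1 on chromosome X (62187472 to 62210321). ENO4 on chromosome 14 (127032217 to 127063660) overlaps HSPA12A, and PGAM2 on chromosome 18 (48693832 to 48712787) overlaps VOPP1. GAPDHS, LDHC, ENO1, ALDOA and PGAM2 each overlap a RefSeq locus that has a LOC identifier in place of a symbol, strand not considered. Reads that fell on overlapping genes of the same strand were left uncounted by the authors' counting. They were 0.698 to 0.837% of all reads entered in the counting of a library, counted or not.

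The libraries held 47988011 to 97059970 gene counts in Landrace and 41358671 to 125576407 in Duroc, and the 9 genes took 0.178 to 0.282% of them. At day 0 the high Landrace boars had deeper libraries (64052547 to 97059970) than the low ones (53644587 to 77217140). The fewest reads behind any value were the 120 of PGAM2 in D6, and each value of the other 8 genes rested on at least 1166 reads. Boar L13 stood apart in its marker genes, with a summed late spermatid level of 6760 CPM, the lowest of the 21 boars, and a Sertoli cell sum of 508 CPM, the highest. The tissue label held in every library, with summed late spermatid markers (PRM1, TNP1, AKAP4 and 5 others) at 6760 to 15800 CPM. Values are given as CPM, which are read counts scaled to the library total after trimmed mean of M-values (TMM) normalization. CPM is not divided by gene length, so no level was compared between genes.

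At day 0 in Landrace, ALDOA, GAPDHS, PGAM2 and ENO1 were lower in the boars with high hyperactivity, by a log2 fold change between -0.90 and -1.82, and the other 5 genes did not pass the test. In edgeR's quasi-likelihood test over 12979 genes, with p-values adjusted by the Benjamini-Hochberg method, 4 of the 9 genes had an adjusted p under 0.05, all 4 lower. Over all genes tested, 20.7% passed in either direction and 15.8% passed as lower. The 4 genes were also those whose groups did not overlap, with every high boar below every low boar, a pattern that 20.2% of all genes tested showed. In bulk tissue, fewer cells of a type and less RNA per cell cannot be told apart.

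ALDOA, the aldolase that splits fructose bisphosphate into a pair of triose phosphates, was at 76.7, 71.5, 111 and 89.6 CPM in the low boars L1 to L4. In the high boars L5 to L8 it was at 42.4, 30.2, 38.8 and 15.9 CPM. The highest of the high boars was thus well below the lowest of the low boars. The means were 31.8 ± 11.8 CPM (SD, n = 4) over the high boars and 87.2 ± 17.6 CPM (SD, n = 4) over the low boars. The log2 fold change of ALDOA was -1.42 (SE 0.27, edgeR quasi-likelihood adjusted p = 0.0208).

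GAPDHS, the glyceraldehyde phosphate dehydrogenase of spermatids and spermatozoa, was at 198, 213, 206 and 247 CPM in L1 to L4 and at 156, 83.3, 126 and 90.1 CPM in L5 to L8. The groups did not overlap, and L5 came nearest to the low boars. Its log2 fold change was -0.90 (SE 0.20, edgeR adjusted p = 0.0209), the smallest of the 4.

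PGAM2, which moves the phosphate group of phosphoglycerate, had the largest fold difference of the 9 genes and the fewest reads. It was at 12.6, 7.30, 13.3 and 13.2 CPM in L1 to L4 and at 4.49, 1.97, 4.65 and 1.70 CPM in L5 to L8. L2 was the low boar nearest to the high group. The log2 fold change of PGAM2 was -1.82 (SE 0.36, edgeR adjusted p = 0.0208).

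ENO1, the enolase of most tissues, which forms phosphoenolpyruvate, was at 118, 106, 124 and 121 CPM in L1 to L4. In L5 to L8 it was at 48.1, 36.3, 60.5 and 25.9 CPM. The low boars were close to each other (117.5 ± 7.95 CPM, SD, n = 4) and the high boars more spread (42.7 ± 14.95 CPM, SD, n = 4). ENO1 had a log2 fold change of -1.43 (SE 0.23, edgeR adjusted p = 0.0208) and ranked 7 by p among the 12979 genes. For each of these 4 genes alone, a two-sided exact permutation test of log2 CPM gave p = 0.0286, the smallest that 4 boars against 4 allow.

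**Figure D1:**
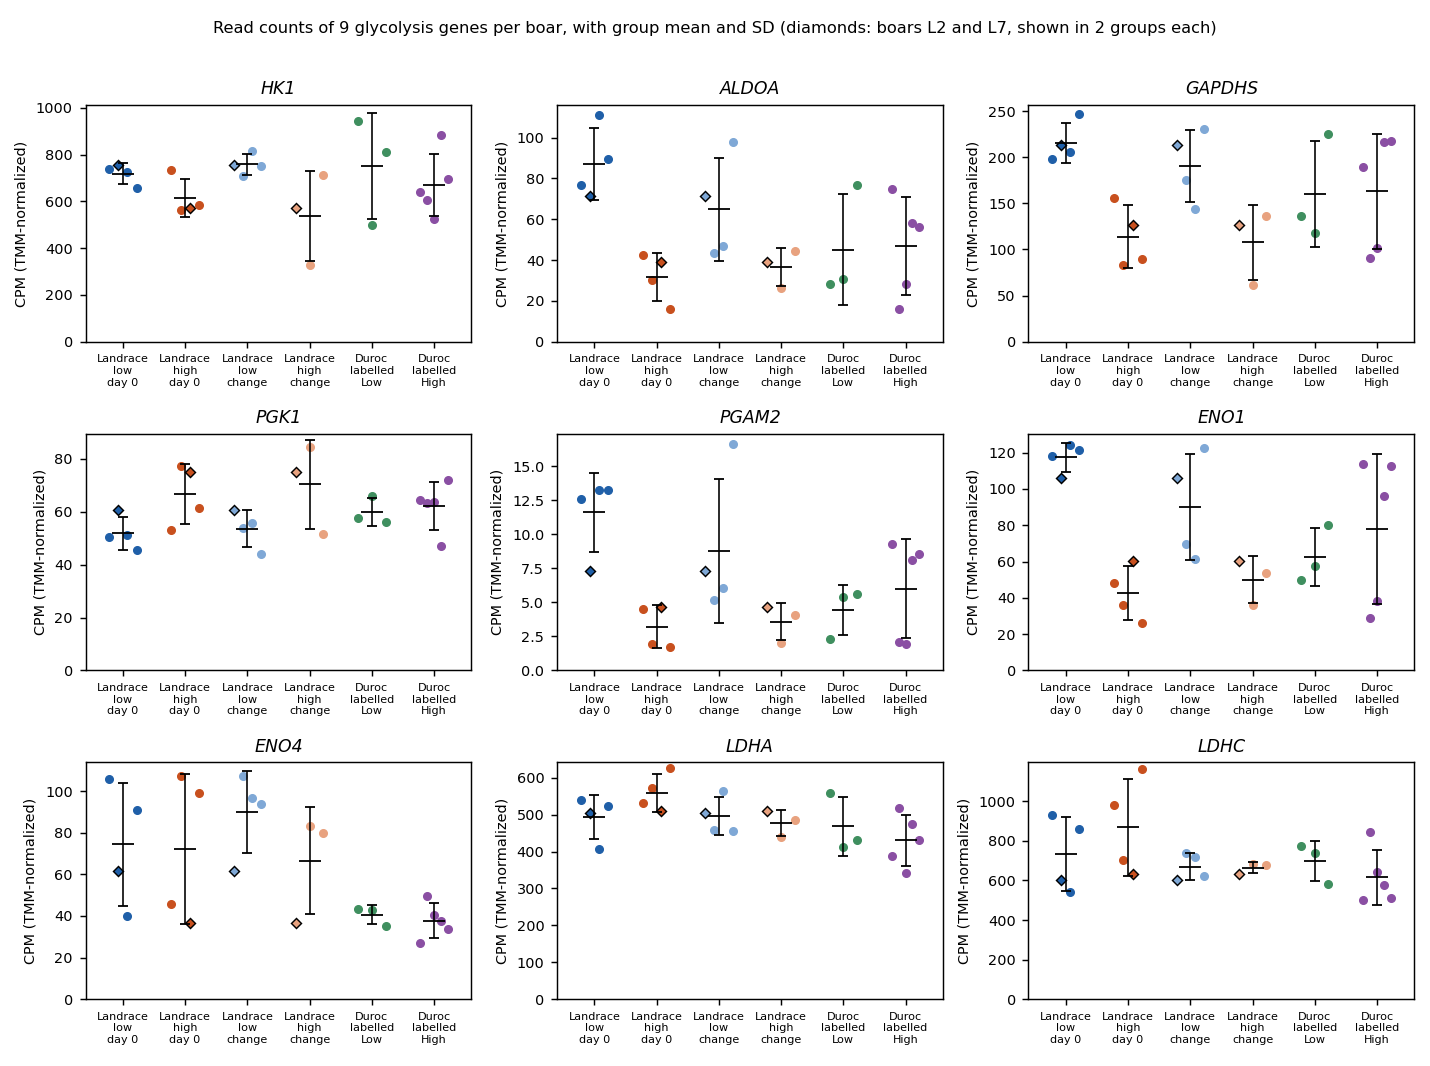
TMM-normalized CPM of the 9 genes (linear vertical axes from 0) in each boar of the 6 groups, with the group mean as a dash and its SD as bars; diamonds mark L2 and L7, which are in 2 groups each. ALDOA, GAPDHS, PGAM2 and ENO1 sit lower in each of the 4 Landrace boars with high hyperactivity at day 0 than in each of the 4 with low, and ENO4 is at 26.9 to 49.8 CPM in the 8 Duroc boars.

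The 5 remaining genes did not pass at day 0. An unadjusted p under 0.05 was reached by 41.7% of all genes tested, and among the 5 only by PGK1. PGK1 is the somatic phosphoglycerate kinase, which makes ATP. It was at 50.5, 60.6, 51.0 and 45.6 CPM in L1 to L4 and at 53.2, 77.2, 74.9 and 61.5 CPM in L5 to L8. The groups overlapped, and the log2 fold change was 0.38 (SE 0.15, edgeR adjusted p = 0.0882). HK1, the hexokinase that phosphorylates glucose at the entry of the pathway, had a log2 fold change of -0.21 (SE 0.13), with 561 to 735 CPM in the high and 656 to 755 CPM in the low boars.

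LDHA and LDHC, the somatic and the germ cell subunits of lactate dehydrogenase, overlapped between the groups. LDHA was at 540, 505, 406 and 524 CPM in L1 to L4 and at 532, 572, 510 and 628 CPM in L5 to L8, with a log2 fold change of 0.20 and an approximate 95% interval, taken from its standard error, from -0.06 to 0.45. LDHC was at 931, 605, 544 and 859 CPM in L1 to L4 and at 980, 703, 635 and 1163 CPM in L5 to L8, with a log2 fold change of 0.26 and an interval from -0.18 to 0.70. ENO4, the enolase of the sperm tail, varied as much within as between the groups, from 39.8 to 106 CPM in the low and from 36.8 to 107 CPM in the high boars. The log2 fold change of ENO4 was -0.05 and its interval ran from -0.74 to 0.65.

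**Figure D2:**
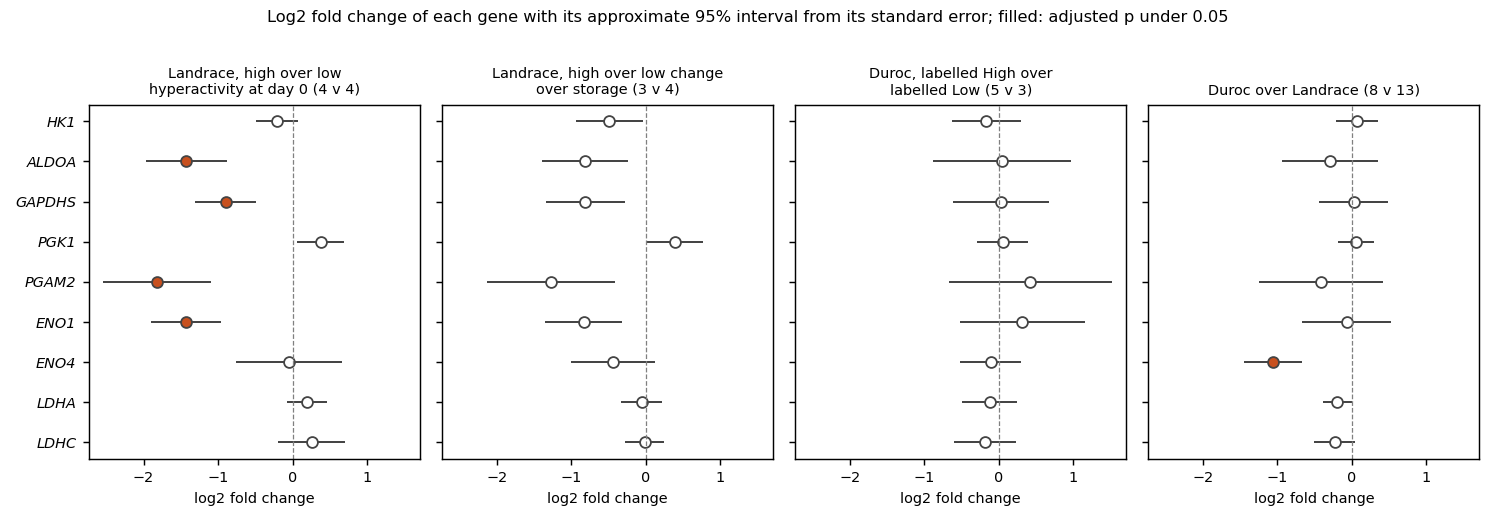
Log2 fold change of each gene (horizontal axis, log2 scale) in 4 comparisons, with an approximate 95% interval from the standard error of edgeR's quasi-likelihood fit; filled points have an adjusted p under 0.05. At day 0 in Landrace 4 genes are filled, all at or below -0.90, ENO4 alone is filled between breeds, at -1.06, and no gene is filled in the remaining comparisons.

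The day 0 calls rested on single boars. Without L3, or without L6, 1 gene of the whole table passed and none of the 9 did, while the log2 fold changes of the 4 genes stayed negative in each fit that left out 1 boar. Across those fits ALDOA ran from -1.59 to -1.20, GAPDHS from -1.08 to -0.76, PGAM2 from -2.07 to -1.61 and ENO1 from -1.66 to -1.24. The highest adjusted p of ALDOA, PGAM2 and ENO1 was 0.0532 and that of GAPDHS 0.0539. Without L5, PGK1 passed too, which made 5 genes.

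Other genes of the pathway were taken from a list of 32, of which 27 had an identifier and 20 were tested at day 0. At day 0, 20.7% of all genes tested passed and 15.8% passed as lower. Of the 20, 9 had an adjusted p under 0.05 in edgeR's test, all 9 lower in the high boars. They were GPI, PFKL, ALDOC, TPI1, ENO2, ENO3, PFKFB4, SLC2A5 and SLC2A8. The 5 with the smallest p were PFKL, the liver form of phosphofructokinase, at a log2 fold change of -1.64, the sugar transporters SLC2A5 (-0.74) and SLC2A8 (-1.22), the aldolase ALDOC (-0.92) and triosephosphate isomerase TPI1 (-0.83). PFKL was at 0.489 ± 0.184 CPM in the high boars, so its fold rests on few reads. ENO3, the muscle enolase, had a log2 fold change of -0.82 (edgeR adjusted p = 0.0415). Of the other somatic counterparts, GAPDH had a log2 fold change of -0.79 (edgeR adjusted p = 0.0541), PGAM1 one of 0.33 (edgeR adjusted p = 0.334), and LDHB was below the filter at 0.535 CPM in the high boars. The median log2 fold change was -0.21 over the 9 genes, -0.71 over the 20 and 0.03 over all genes tested. Without L3 or without L6 none of the 20 passed, without L1 1 passed, without L4 4, and without L8 5.

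Some marker genes of other cell types also differed between the day 0 groups. Of 11 lists of markers, 9 overlapped between the day 0 groups in their summed level and 2 did not. No Sertoli, Leydig, endothelial, macrophage or spermatogonia marker passed the test, where 20.7% of all genes tested did. The summed spermatocyte markers (7 of 8 matched, among them SYCP1 and SYCP3) were at 1530 to 2180 CPM in the high and 1140 to 1430 CPM in the low boars, and 1 of the 7 passed the test as higher. The late spermatid sum overlapped (12000 to 15800 against 10600 to 15100 CPM), and 3 of its 8 genes passed as lower. Of the 8, TNP1, ODF1 and AKAP4 had positive log2 fold changes (0.207, 0.071 and 0.305). Of the 4 round spermatid markers tested, ACR, the acrosomal protease acrosin, passed as lower at a log2 fold change of -1.05 (edgeR adjusted p = 0.0208, rank 17), and the other 3 had positive values. All 4 peritubular markers tested had negative values (median log2 fold change -1.08), and of these MYH11, a smooth muscle myosin, passed (-1.17, edgeR adjusted p = 0.0392). The 1 red blood cell marker tested, HBB, passed at -2.53 (edgeR adjusted p = 0.0376), with 1.19 ± 1.06 CPM in the high and 6.89 ± 7.47 CPM in the low boars. The size of this fold rests largely on L2. The summed red blood cell markers were at 19.7 CPM in L2 and at 3.28, 5.22 and 1.61 CPM in L1, L3 and L4. In the high boars they were at 0.656 to 3.08 CPM, so the groups overlapped. The part of these cells in the difference of the 4 genes was not tested. PGAM2 and ENO3 are also muscle enzymes, and the summed skeletal muscle markers (3 of 5 matched) were at 0.942 to 2.15 CPM in the low and 0.196 to 0.590 CPM in the high boars. Both sums were close to 0, and the muscle creatine kinase CKM averaged 0.116 and 0.0585 CPM in the low and the high group.

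Technical measures moved with the 4 genes too. Reads that aligned to more than one place were not counted. Of all reads entered in the counting, they amounted to 7.53 to 7.92% in the low boars at day 0. In the high boars they were 5.83 to 7.20%, without overlap. Reads left uncounted because they fell on overlapping genes were 0.785 to 0.837% in the low and 0.698 to 0.801% in the high boars, with overlap. The part of these measures in the differences was not tested. With every library thinned at random to the smallest total, the 4 genes still passed, with log2 fold changes of -0.94 for GAPDHS and -1.47 for ENO1.

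In the comparison of change over storage, no gene passed. By edgeR's quasi-likelihood test, 0 of 12824 genes (0%) had an adjusted p under 0.05, against 64 by the likelihood ratio test and 116 by DESeq2, and none of the 9 genes passed by any of the 3. At an unadjusted p under 0.05 there were 4 of the 9 genes, where 19.8% of all genes tested reached that level. They were ENO1 at a log2 fold change of -0.83 (SE 0.26), GAPDHS at -0.81 (SE 0.26), PGAM2 at -1.27 (SE 0.43) and ALDOA at -0.82 (SE 0.28), each with an edgeR adjusted p of 0.24. PGAM2 was at -0.78 without L12 and GAPDHS at -0.52 without L13, and over the fits that left out 1 boar the values nearest 0 were -0.63 for ENO1 and -0.56 for ALDOA. These values are not independent of those at day 0, since L2 and L7 are in both. The share of counts from mitochondrially encoded genes was 1.099 to 1.968% in the boars with a small change. In those with a large change it was 2.003 to 4.018%, without overlap. Over the 13 Landrace boars this share ran against HK1 (r = -0.76) and GAPDHS (r = -0.59). Neither passed (permutation adjusted p = 0.0527 and 0.126), and without 2 boars r was -0.09 and 0.29. The part of this share in the values of the enzymes was not tested.

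In the 3 boars with a large change, L7, L13 and L15, ENO1 was at 60.5, 35.9 and 53.8 CPM, and in the 4 with a small change, L2, L9, L10 and L12, at 106, 69.5, 61.6 and 122 CPM. GAPDHS was at 126, 61.4 and 136 CPM against 213, 176, 143 and 230 CPM, and PGAM2 at 4.65, 2.03 and 4.08 CPM against 7.30, 5.15, 6.08 and 16.6 CPM. The groups of these 3 genes did not overlap, a pattern that 8.72% of all genes tested showed as lower, though for ENO1 the nearest boars were at 60.5 and 61.6 CPM. ALDOA overlapped, at 38.8, 26.2 and 44.7 CPM against 71.5, 43.5, 47.0 and 97.8 CPM.

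HK1 was at 571, 330 and 713 CPM in L7, L13 and L15 and at 755, 708, 816 and 753 CPM in L2, L9, L10 and L12. Its log2 fold change of -0.49 (SE 0.22) rested on L13 in size, and it was -0.22 without that boar and -0.75 without L15. PGK1 had a log2 fold change of 0.39 (SE 0.19), and it was highest in L13, at 84.6 CPM. LDHA and LDHC had log2 fold changes of -0.05 and -0.01, with approximate 95% intervals from -0.31 to 0.20 and from -0.27 to 0.24. The log2 fold change of ENO4 was -0.44 (SE 0.28, edgeR adjusted p = 0.365). It ran from -0.61 to -0.15 over the fits that left out 1 boar. Of the 19 other genes of the pathway tested, 6 reached an unadjusted p under 0.05, where 19.8% of all genes tested did. The 5 with the smallest p were TPI1 (-0.82), ENO3 (-0.89), ENO2 (-0.79), SLC2A5 (-0.49) and PGAM1 (0.60).

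No late spermatid marker passed in this comparison, but all 8 had negative log2 fold changes, with a median of -0.55 against -0.49 over the 9 enzymes, and 5 of the 8 reached an unadjusted p under 0.05, where 19.8% of all genes tested did. Their sum was at 12700, 6760 and 8560 CPM in L7, L13 and L15 and at 12200 to 15200 CPM in the boars with a small change, so the groups overlapped through L7 alone. The part of these cells in the values of the enzymes was not tested. The sums of the 10 other marker lists overlapped too. Single markers of other cells went the other way. All 6 Leydig and all 4 endothelial markers tested had positive log2 fold changes (medians 0.59 and 0.54). In each of these lists 2 genes reached an unadjusted p under 0.05. Of the 8 Sertoli cell markers tested, 1 was negative (median 0.29) and 2 reached that level. None of these markers passed.

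Between the Duroc boars labelled High and Low, none of the 9 genes differed beyond the spread between boars. By edgeR's quasi-likelihood test 0 of 13043 genes (0%) passed, as by the likelihood ratio test and DESeq2, and 158 genes (1.21%) reached an unadjusted p under 0.05, none of them among the 9. The log2 fold changes, labelled High over Low, lay between -0.18 for LDHC and 0.43 for PGAM2. ENO1 was at 114, 28.9, 38.1, 96.1 and 113 CPM in D1 to D5 and at 49.6, 57.6 and 80.4 CPM in D6, D7 and D9. The boars labelled High held both the lowest and the highest levels. ALDOA showed a like spread, with its highest levels at 74.8 CPM in the boars labelled High and 76.8 CPM in those labelled Low. No gene of the other list reached an unadjusted p under 0.05, the smallest being that of PGAM1 (log2 fold change 0.24), followed by SLC2A5 (-0.19), GAPDH (0.31), ADPGK (-0.14) and BPGM (-0.12).

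The labelled difference was also compared between the breeds with an interaction term. By edgeR's quasi-likelihood test 0 of 12920 genes (0%) passed, and 15.1% reached an unadjusted p under 0.05. Among these were 4 of the 9 genes, with differences of High over Low, Duroc minus Landrace, of 1.73 for ENO1 (SE 0.54), 2.23 for PGAM2 (SE 0.74), 1.46 for ALDOA (SE 0.61) and 0.91 for GAPDHS (SE 0.42). Each had an edgeR adjusted p of 0.329, so a difference between the breeds was not shown for any of the 9.

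Between the breeds, ENO4 was lower in Duroc by a log2 fold change of -1.06 and no other of the 9 genes passed. By edgeR's quasi-likelihood test, 355 of 12835 genes (2.77%) differed between the 8 Duroc and the 13 Landrace boars, and 1.48% were lower in Duroc. ENO4 averaged 38.8 ± 6.997 CPM (SD, n = 8) in Duroc and 80.7 ± 26.0 CPM (SD, n = 13) in Landrace (SE of the log2 fold change 0.20, edgeR adjusted p = 0.00219, rank 84). A two-sided exact permutation test over all 203490 assignments of its log2 CPM gave p = 0.000496.

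In D1 to D7 and D9, ENO4 was at 26.9, 49.8, 40.4, 37.7, 33.8, 43.3, 43.1 and 35.4 CPM. In Landrace its lowest, median and highest levels were 36.8, 91.2 and 108 CPM. The breeds overlapped through 3 Landrace boars, L3, L5 and L7, which lay within the Duroc range, and the 10 others were at 61.8 to 108 CPM. The call was kept in each fit that left out 1 boar, with log2 fold changes from -1.12 to -0.99. With the 8 Landrace boars of the day 0 groups alone the log2 fold change was -0.90 (edgeR adjusted p = 0.0435), and with the labelled level as a covariate in those 16 boars it was -0.89 (edgeR adjusted p = 0.0489). The boars had been chosen for extreme hyperactivity, so the breed means are those of chosen boars.

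The next largest breed difference was that of PGAM2, at -0.41 (SE 0.42). LDHA, at 445 ± 70.02 CPM in Duroc and 509 ± 60.6 CPM in Landrace, had a log2 fold change of -0.19 (SE 0.09) and an edgeR adjusted p of 0.39. GAPDHS, ENO1, PGK1 and HK1 had log2 fold changes between -0.07 and 0.07. Of the 19 other genes of the pathway tested, ENO3 passed, with 22.9 ± 7.89 CPM in Duroc and 45.3 ± 17.8 CPM in Landrace, a log2 fold change of -0.99 and an edgeR adjusted p of 0.0314. The call of ENO3 was lost without any 1 of L1, L2, L10, L12, D2, D3, D6 or D7. PFKP (-0.73), BPGM (0.16), PFKM (-0.16) and HK2 (0.13) followed by p and did not pass. The sums of all 11 marker lists overlapped between the breeds, as did the levels of all but 0.28% of the genes tested. By edgeR's test 2 single markers passed. KIT, a receptor of spermatogonia, was lower in Duroc at a log2 fold change of -1.40 (edgeR adjusted p = 0.000804), and GATA4, a transcription factor of Sertoli cells, was higher at 0.74 (edgeR adjusted p = 0.00764). The other markers of these cells did not go with them as a set. KIT was the 1 negative value among the 5 spermatogonia markers tested (median 0.03). Of the 8 Sertoli cell markers tested, 3 were negative (median 0.03). The part of KIT and GATA4 in the difference of ENO4 was not tested.

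Ratios of a germ cell or muscle form to its partner within a library need no normalization between libraries, and gene length cancels in their differences. They were log2 ratios of counts with a pseudocount of 0.5, for 4 pairs in 4 comparisons, 16 exact permutation tests in all. PGAM2:PGAM1 was -1.39, -2.89, -1.70 and -1.43 in L1 to L4 and -3.16, -5.27, -3.66 and -4.20 in L5 to L8. The groups did not overlap, and the difference was -2.22 (two-sided exact permutation test, p = 0.0286, adjusted over the 16 tests p = 0.229). For change over storage it was -1.87 (exact p = 0.0286, adjusted p = 0.229). An exact p of 0.0286 is the smallest that either design allows, and with 2 of the 16 tests at it the adjusted p could not have been lower, so the adjusted value says nothing about the size of the shift.

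LDHC:LDHA differed by 0.05 at day 0 (exact p = 0.686), and GAPDHS:GAPDH by -0.06 (exact p = 0.857). GAPDHS and GAPDH each had negative log2 fold changes at day 0, and their ratio had no shift beyond its spread (SD 0.61 in the high and 0.23 in the low boars). ENO4:ENO1 was 0.68 ± 1.28 in the high and -0.75 ± 0.65 in the low boars at day 0 (exact permutation p = 0.114). Between the breeds it was -0.76 ± 0.98 in Duroc and 0.19 ± 1.02 in Landrace (SD over boars, exact p = 0.051, adjusted p = 0.272).

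**Figure D3:**
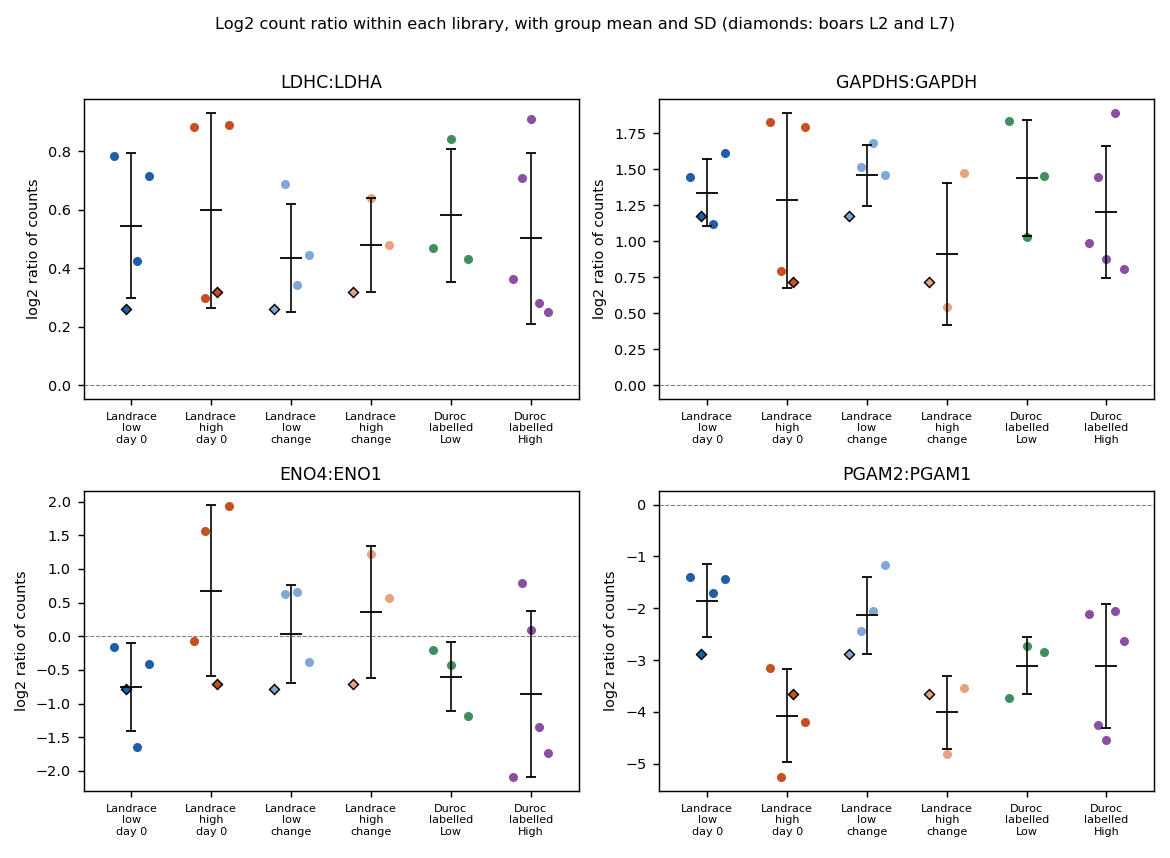
Log2 ratio of the counts of 2 genes within each library (vertical axes, log2 scale) for 4 pairs in the 6 groups, with group mean and SD; diamonds mark L2 and L7. PGAM2:PGAM1 is lower in each Landrace boar with high hyperactivity at day 0 (-5.27 to -3.16) than in each with low (-2.89 to -1.39), and LDHC:LDHA overlaps in all comparisons.

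The genes also differed in how far they ranged over boars of 1 breed. Over the 13 Landrace boars the highest level of PGAM2 was 9.75 times the lowest, that of ALDOA 6.98 times, that of ENO1 4.81 times and that of GAPDHS 4.02 times. In LDHA the same ratio was 1.55, in PGK1 1.92 and in LDHC 2.14. In the 8 Duroc boars the ratios were 4.77 for PGAM2, 4.80 for ALDOA, 3.94 for ENO1 and 2.48 for GAPDHS, against 1.64 for LDHA and 1.52 for PGK1.

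ALDOA, GAPDHS, PGAM2 and ENO1 ranged together. They were singled out because each differed between the day 0 groups, whose boars are among the 13 Landrace boars. Their correlations and p-values in Landrace are therefore not independent of that difference. Over the 13 Landrace boars, log2 CPM of ENO1 correlated with PGAM2 (Pearson's r = 0.97, Spearman's rho = 0.98) and with ALDOA (r = 0.97, rho = 0.96), each with a permutation p of 1e-05, the smallest that 100000 permutations can give, and r = 0.96 and 0.97 without the 2 boars farthest from the median. GAPDHS correlated with ENO1 at r = 0.91 (rho = 0.90, permutation p = 3e-05 and 7e-05, r = 0.94 without 2 boars). Benjamini-Hochberg adjusted p-values over the 72 pairs computed in the 2 breeds were 0.00018 for the first pairs and 0.000432 for GAPDHS with ENO1. ENO1 levels in Landrace left a gap between 69.5 and 106 CPM, and within the 8 boars below it r was 0.94 for ENO1 with PGAM2, 0.92 with ALDOA and 0.79 with GAPDHS (exact permutation p = 0.000893, 0.00265 and 0.02, rho = 0.93, 0.83 and 0.76). In the 8 Duroc boars, where the labelled groups did not differ, r was 0.95 for ENO1 with PGAM2, 0.93 with ALDOA and 0.93 with GAPDHS (exact permutation p = 0.000223, 0.00275 and 0.00283, adjusted p = 0.0023, 0.0144 and 0.0144). The rho of these Duroc pairs was 0.98, 0.83 and 0.76 (exact permutation adjusted p = 0.00357, 0.0581 and 0.102), so of the 3 only ENO1 with PGAM2 passed by rank.

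PGK1 ran the other way in Landrace, with r = -0.85 against GAPDHS (rho = -0.83, permutation p = 0.00051 and 0.00086, adjusted p = 0.00408), and r = -0.66 without 2 boars. LDHA and LDHC correlated at r = 0.71 in Landrace (rho = 0.69, permutation p = 0.00654 and 0.0117, adjusted p = 0.0235), which fell to 0.40 without 2 boars and so rested on them. In Duroc LDHC rose with ENO4 (r = 0.93, rho = 0.98, exact permutation p = 0.000397 each, adjusted p = 0.00357, r = 0.88 without 2 boars) and ran against ENO1 (r = -0.88, rho = -0.93, exact permutation p = 0.00613 and 0.00223, adjusted p = 0.0232). In Landrace the same pairs had r = 0.35 and -0.41 (permutation p = 0.24 and 0.166).

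Measures of the library and the tissue moved with the same genes. The share of reads aligned to more than one place correlated in Landrace with ALDOA (r = 0.94), ENO1 (0.92), PGAM2 (0.92) and GAPDHS (0.92), each with a permutation adjusted p of 0.00081 over 162 relations. By rank rho was 0.90 for the first 3 and 0.95 for GAPDHS (permutation adjusted p = 0.00283 and 0.00162). Within the 8 Landrace boars below the gap these r were 0.87, 0.82, 0.79 and 0.82, and fell to 0.43, 0.42, 0.39 and 0.66 without the 2 boars farthest from the median. In Duroc the same share correlated with ALDOA at r = 0.92 (exact permutation adjusted p = 0.0184, rho = 0.86 with adjusted p = 0.0964) and with ENO1 at 0.76 (exact permutation adjusted p = 0.112). The share of reads left uncounted for overlapping genes also correlated in Landrace with ENO1 (r = 0.84, permutation adjusted p = 0.00702), PGAM2 (r = 0.77, adjusted p = 0.0267) and ALDOA (r = 0.77, adjusted p = 0.0267). Without 2 boars these r were 0.75, 0.65 and 0.63, and by rank none passed (rho = 0.77, 0.78 and 0.68, permutation adjusted p = 0.0664, 0.0632 and 0.119).

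The summed spermatocyte markers ran against ALDOA in Landrace (r = -0.77, permutation adjusted p = 0.0267, r = -0.43 without 2 boars) and in Duroc (r = -0.95, exact permutation adjusted p = 0.00402, r = -0.95 without 2 boars). They also ran against ENO1 in Landrace (r = -0.71, permutation adjusted p = 0.0332, r = -0.46 without 2 boars) and in Duroc (r = -0.87, exact permutation adjusted p = 0.027). In Duroc they ran against GAPDHS as well (r = -0.83, exact permutation adjusted p = 0.0347). Their relations with PGAM2 (r = -0.62 in Landrace and -0.76 in Duroc) and with GAPDHS in Landrace (r = -0.45) did not pass. The spermatocyte sum ran with LDHA (r = 0.80, adjusted p = 0.0209) and LDHC (r = 0.76, adjusted p = 0.0267) in Landrace by the permutation test, and these fell to 0.51 and 0.35 without 2 boars. By rank the Landrace relations did not pass, with rho = -0.67 for ALDOA, 0.74 for LDHA and 0.65 for LDHC (permutation adjusted p = 0.119, 0.0805 and 0.148), and the Duroc relation of ALDOA did, with rho = -0.98 (exact permutation adjusted p = 0.0129). ENO1 did not pass by rank in Landrace (rho = -0.63, permutation adjusted p = 0.156). In Duroc neither ENO1 (rho = -0.9) nor GAPDHS (rho = -0.81) did (exact permutation adjusted p = 0.0805 and 0.151). The part of these measures in the levels of the glycolysis genes was not tested.

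The genes whose log2 CPM over the 21 libraries was most like that of each enzyme were listed by Pearson's r, with no test. ENO1 was most like AAMP (0.986), TMEM141 (0.984) and SDF4 (0.983), PGAM2 most like ZGPAT (0.978), LRRC56 (0.977) and COX4I1 (0.975), and ALDOA most like ATG2A (0.98), ILVBL (0.979) and PLEKHG4 (0.978). GAPDHS was most like SPATA20 (0.987), SGSM2 (0.985) and TSSK2 (0.984). HK1 was nearest to PLEKHO1 (0.960), DESI1 (0.959) and ACSBG2 (0.956), and PGK1 to AP3S2 (0.922) and YWHAB (0.894). LDHC was nearest to ASNSD1 (0.912), STARD6 (0.902) and YIPF4 (0.882), LDHA to MARCHF10 (0.893), CCT3 (0.845) and CCDC178 (0.835), and ENO4 to DTWD1 (0.847), RBM47 (0.825) and SLC22A16 (0.811). Of the genes named here, COX4I1 is a subunit of cytochrome c oxidase, and none was an enzyme of glycolysis.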

How the data were processed

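The authors trimmed stranded mRNA reads with Trimmomatic 0.36, aligned them to Sscrofa 11.1 and counted them per Ensembl gene with HTSeq (reverse stranded). What was deposited, in 1 file per boar, is these read counts without normalization. Reads aligned to several places were not counted, which can lower genes with close copies. Symbols came from an Ensembl identifier table and positions from RefSeq.

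The analysis used edgeR 4.0.16 in R 4.3.3. A gene was tested where 50% or more of the libraries of a comparison reached 1 CPM, by the quasi-likelihood test after TMM normalization. The threshold was a Benjamini-Hochberg adjusted p of 0.05. Each fit was first tested on simulated counts. The likelihood ratio test, as used by the authors, DESeq2 1.42.0, relative log expression normalization, other filters, a robust fit, other sets of boars and leaving out each boar were alternatives. Thinning to the smallest library was added after seeing the data. CPM use 1 TMM scale over 21 libraries. Permutation tests used Python 3.11.15. Ratios used a pseudocount of 0.5.

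The genes, the list of other pathway genes and the 11 marker lists were chosen with earlier results of these data known. Named genes are the 9 enzymes, 4 somatic counterparts, the 5 other pathway genes with the smallest p in each comparison and, for each enzyme, the 3 genes most like it. Of these, 1 gene is not reported here. No pair of boars of 1 breed looked like a duplicate (106 pairs, chi-square per degree of freedom 42.9 to 656). No columns of other samples were used. PGK2 and its ratio to PGK1 were not analysed here.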

Additional observations from a re-analysis of the deposited data

Results flagged for a closer look

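Over 65 sets of 4 to 8 boars, 2 held a boar far from the others by Dixon's test, where chance gives about 3.25. HK1 was at 735 CPM in L5, against 561 to 586 CPM in the other Landrace boars with high hyperactivity at day 0. PGAM2 was at 7.3 CPM in L2, against 12.6 to 13.3 CPM in the other Landrace boars with low hyperactivity at day 0.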

How the results depend on the processing

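The 4 calls at day 0 (ALDOA, GAPDHS, PGAM2 and ENO1) kept their direction in all 18 alternatives and the call of ENO4 between the breeds was kept in all 31, while GAPDHS was not called with all 13 Landrace libraries in 1 fit (edgeR adjusted p = 0.0506). Genes called at day 0 numbered 2682, against 1661 in a separate fit with a filter of 5 CPM and 1 to 3764 in the fits that left out each boar, with 966 without L1, 1 without L3 or without L6, 1481 without L4 and 1228 without L8, and of the 9 enzymes 0 to 5 were called, and of the other pathway genes 0 to 12. Of the day 0 calls 76.7% were lower, against 62.8% by DESeq2, 85.9% at 5 CPM, 86.6% after thinning and 95.7% without L2 and L7. For change over storage 64 genes were called by the likelihood ratio test, 116 by DESeq2, 1 with no filter beyond 1 count and 0 to 2 when each boar was left out, and for the Duroc labels 0 to 2. Between the breeds 537 were called by DESeq2, 554 with no filter, 225 at 5 CPM, 204 with 8 Landrace boars and 230 with the labelled level as covariate, against 355, and ENO3, the 1 other pathway gene called, was lost (0) in both fits of the same 16 boars.

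Signs turned only in values that no test called. ENO1 between the breeds was 0.12 with the covariate (-0.19 to 0.05 leaving out each boar) and GAPDHS -0.02 with 8 Landrace boars (-0.06 to 0.11). ENO4 at day 0 was 0.03 with no filter and 0.07 without L2 and L7 (-0.29 to 0.16). For change over storage LDHC was 0.00 with all Landrace boars (-0.06 to 0.05) and LDHA -0.11 to 0.03. For the Duroc labels GAPDHS was 0.00 with no filter (-0.15 to 0.36), ALDOA -0.20 to 0.67, HK1 -0.39 to 0.03, LDHA -0.20 to 0.03 and PGK1 0.00 to 0.14. The difference of medians of PGAM2:PGAM1 was -2.37 at day 0 and -1.41 for change, neither past the threshold, 0.22 for the Duroc labels and 0.10 between breeds. Leaving out each boar, LDHC:LDHA ran from -0.05 to 0.15 at day 0, from -0.04 to 0.13 for change, from -0.18 to 0.05 for the Duroc labels and from -0.07 to 0.02 between breeds. GAPDHS:GAPDH ran from -0.24 to 0.13 at day 0 and from -0.11 to 0.04 between breeds. ENO4:ENO1 ran from 1.01 to 1.89 at day 0 and from -1.17 to -0.76 between breeds, passing an unadjusted 0.05 in some fits, from -0.10 to 0.86 for change and from -0.67 to 0.05 for the Duroc labels. PGAM2:PGAM1 ran from -2.56 to -1.82 at day 0, from -2.12 to -1.46 for change and from -0.32 to 0.35 for the Duroc labels. At day 0 some of these fits lost an unadjusted p under 0.05, and the cause was not tested, while for change the smaller groups cannot reach it.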

Other observations

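Several glycolysis isoforms of other tissues were at low levels in these testes, with means below 1 CPM in both breeds. LDHB, the lactate dehydrogenase subunit of heart, averaged 0.541 ± 0.184 CPM (SD, n = 8) in Duroc and 0.543 ± 0.194 CPM (SD, n = 13) in Landrace. PKLR, the pyruvate kinase of liver and red cells, was at 0.572 ± 0.261 and 0.787 ± 0.482 CPM. PFKFB1 was at 0.00253 and 0.00963 CPM. None of these 3 genes was tested between the breeds, since they were below 1 CPM in most libraries, and they were named after their values were seen.

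Other forms were well counted in both breeds. PFKM, the muscle phosphofructokinase, averaged 189 ± 34.2 CPM in Duroc and 211 ± 34.9 CPM in Landrace, and PKM, the pyruvate kinase of most tissues, 104 ± 20.4 and 98.9 ± 19.9 CPM. PFKFB2, which sets the level of an activator of phosphofructokinase, averaged 156 ± 26.4 and 141 ± 30.7 CPM, and none of these 3 passed edgeR's test.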
